A study of Homo sapiens with 6 samples.

Results

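DNA replication and G1/S genes are 50 genes whose products license replication origins, open and copy the DNA, supply nucleotides, and drive cells from G1 into S phase. They were taken by name from the 34869 genes of the deposited table, all 50 were found, and all 50 passed the filter of a mean of 1 FPKM (reads divided by gene length and by library size). The cells were NCI-H295R, an established line from a human adrenocortical carcinoma that makes adrenal steroids. One group, shTPD52, had received a lentiviral short hairpin RNA that targets TPD52, and the other, shCtrl, a lentiviral hairpin with no target. Both groups thus carried a hairpin, with 3 libraries in each, and the labels name no second hairpin, clone or time. Since no label calls the replicates separate cultures, the p-values rest on the spread between these samples alone, which may be technical.

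Replication is licensed in G1, when the origin recognition complex (ORC), CDC6 and CDT1 load the MCM2-7 helicase on DNA. Kinases then recruit CDC45 and the GINS complex to make the active helicase, and polymerases alpha, delta and epsilon copy the strands with the sliding clamp PCNA. E2F factors, released from RB when cyclin-dependent kinases act, switch on many of these genes as cells enter S phase. In RNA from a whole culture, fewer cells in S phase and less RNA per cell cannot be told apart.

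TPD52 RNA, the target of the hairpin, measured 1.42, 1.18 and 1.29 FPKM in shCtrl replicates 1, 2 and 3 and 0.630, 0.635 and 0.655 FPKM in the shTPD52 libraries, 0.493 times the control mean. Depth worked back from the FPKM ran from 29544341 to 38396624 reads per library, and the replication and G1/S genes held between 134 and 23792 reads in a library. Mitochondrially encoded genes took 17.5% to 18.5% of reads in shCtrl and 19.6% to 24.3% in shTPD52. On the first principal component, which held 61.0% of the variance, shTPD52 replicate 2 lay at 0.29, between the shCtrl libraries (-24.1 to -16.4) and shTPD52 replicates 1 and 3 (27.3 and 35.3). All 8 adrenocortical markers passed the filter, and their summed level was 470 to 492 FPKM in shCtrl and 524 to 536 FPKM in shTPD52. The sum hides changes in both directions. Mean HSD3B2 went from 5.80 FPKM in shCtrl to 21.3 FPKM in shTPD52, and FDX1 from 24.0 to 32.1 FPKM. CYP21A2 went from 60.2 to 77.4 FPKM and CYP11A1 from 58.8 to 75.3 FPKM, but CYP17A1 from 49.3 to 38.4 FPKM. HSD3B2, FDX1 and CYP21A2 passed as higher by limma. CYP11A1 and CYP17A1 did not pass (limma, adjusted p = 0.0532 and 0.0565), though their groups did not overlap. NR5A1, STAR and FDXR overlapped between groups. Endothelial and leukocyte markers were at or near 0 in every library (at most 0.141 FPKM), and 4 of 5 fibroblast markers were below the filter, COL3A1 alone being high at 18.6 to 23.8 FPKM.

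Most of the replication and G1/S genes did not pass the test when TPD52 was lowered. Of the 50, 3 rose (GINS3, RPA3 and CHAF1B), 6 fell (E2F2, POLE, UHRF1, MCM2, POLD3 and E2F1), and 41 missed the threshold of limma after Benjamini-Hochberg adjustment across the 12782 tested genes. The test called 5.63% of all genes higher and 12.7% lower, 18.3% in all, and 6%, 12% and 18% of the replication and G1/S genes, so the share called was near that of the background. No gene of the 50 had a fitted log2 change of 1 or more in size: the values ran from -0.56 to 0.42, on the scale of log2(FPKM + 0.5), which understates the change of low genes. The median change was -0.13, beside -0.11 over all tested genes, and 68% of the 50 had a change below 0, beside 63.2% of all genes.

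Single libraries were also compared without a model. The 3 shTPD52 libraries lay below the 3 shCtrl libraries for 15 of the 50 genes (30%) and above them for 7 (14%), while 28 overlapped. Over all tested genes these shares were 28.3% and 13.8%. At an unadjusted p under 0.05 the limma counts were 6 higher and 13 lower, 38% of the 50 beside 38.6% of all genes. The SD of the log2 changes was 0.25 over the 50 genes and 0.37 over all genes.

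**Figure D1:**
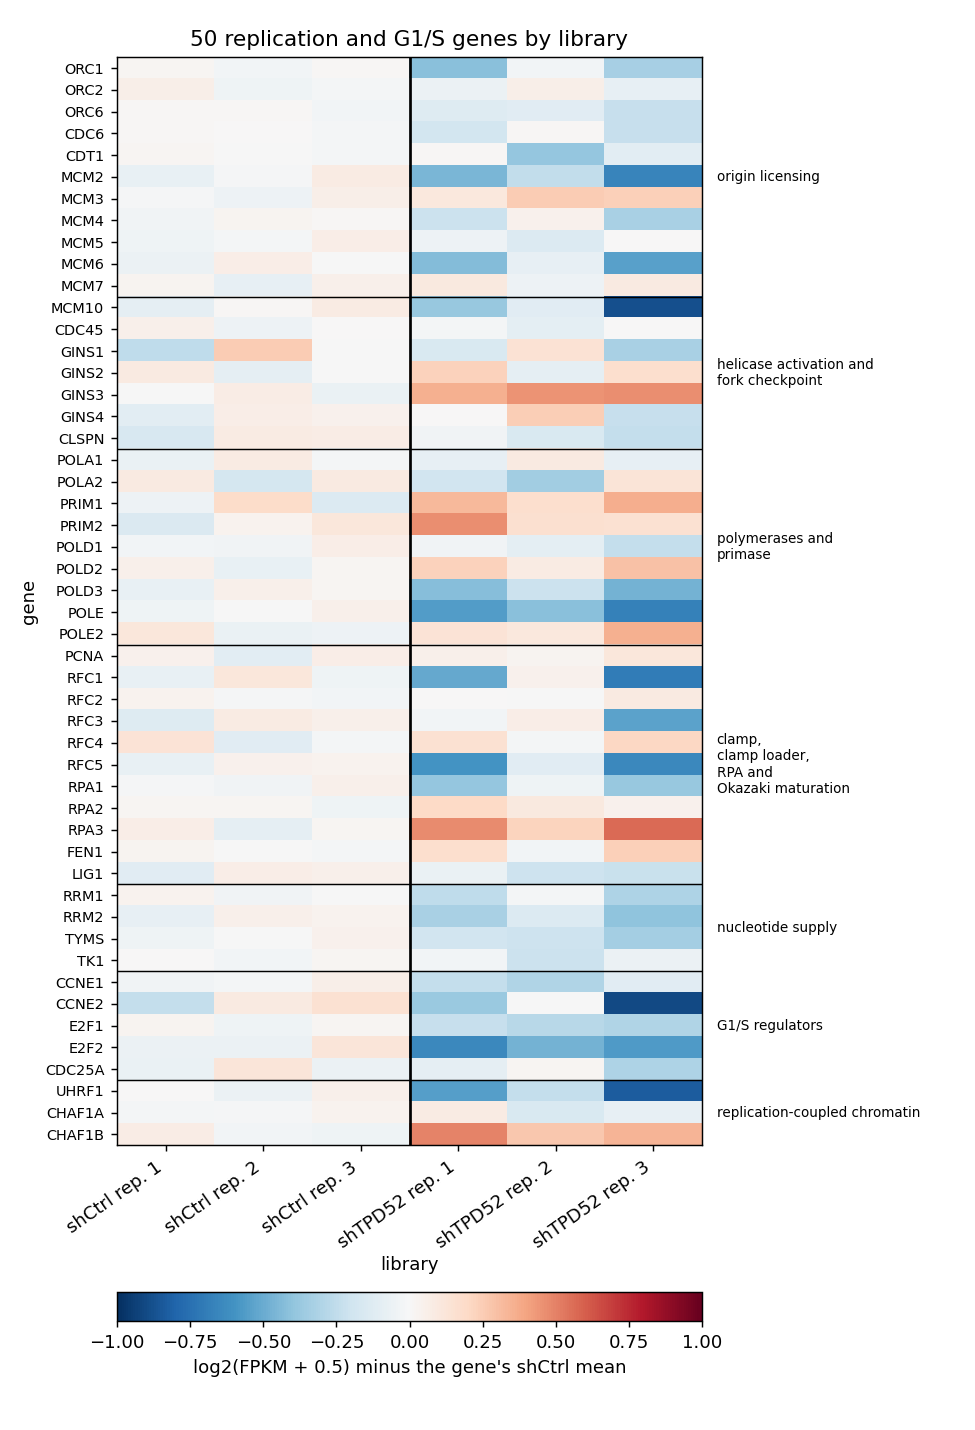
Each row is a gene, each column a library, and the colour is log2(FPKM + 0.5) minus the gene's shCtrl mean (blue below, red above). Blue and red rows lie side by side within most roles, and shTPD52 replicate 2 is paler than replicates 1 and 3 in many rows.

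The library shTPD52 replicate 2 lay nearer to the shCtrl mean than the mean of replicates 1 and 3 did for 36 of the 50 genes (72%), beside 66.2% of all genes. Without it, 6 of the 50 genes were higher and 18 lower by limma, with 12.6% and 32.9% of all genes called. Those lower then included MCM6, MCM4, MCM10, ORC1, CDC6, RRM1, RRM2, TYMS, RFC1, RFC5, RPA1 and CCNE2, and those higher FEN1, POLD2 and PRIM1, beside the 9 called with all libraries. Without any 1 shCtrl library, or without shTPD52 replicate 1, limma called none of the 50, with 3 or 4 higher and 7 to 10 lower at an unadjusted p under 0.05. Few genes of any kind passed there: 0.376% to 1.4% of all genes were higher and 0.305% to 2.12% lower. Without shTPD52 replicate 3 limma called 2 of the 50 lower (4%, E2F2 and POLE) and none higher, beside 4.5% and 2.52% of all genes. At an unadjusted p under 0.05, 3 of the 50 were higher and 9 lower in that setting.

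Many replication genes carry E2F sites near their start, and the promoter stretches of 6 of the 9 genes that passed are shown because they hold letters of this type. Each runs 5′ to 3′ from 100 bases before a RefSeq start to 20 bases after it, on GRCh38.p14, with matches on either strand in capitals. This start can differ from the gene's ends given below, as for GINS3 and UHRF1. UHRF1 has further RefSeq windows, not shown, of which 1 held no match. The letters searched were TTTCCCGC, TTTCGCGC, TTTGCCGC and TTTGGCGC.
E2F1, chr20:33686366-33686485, minus strand: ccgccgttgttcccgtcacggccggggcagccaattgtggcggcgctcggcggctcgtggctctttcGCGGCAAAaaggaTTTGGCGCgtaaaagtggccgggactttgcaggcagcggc
E2F2, chr1:23531214-23531333, minus strand: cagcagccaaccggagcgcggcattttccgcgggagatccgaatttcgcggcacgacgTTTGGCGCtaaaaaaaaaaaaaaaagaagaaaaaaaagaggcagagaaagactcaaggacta
MCM2, chr3:127598311-127598430, plus strand: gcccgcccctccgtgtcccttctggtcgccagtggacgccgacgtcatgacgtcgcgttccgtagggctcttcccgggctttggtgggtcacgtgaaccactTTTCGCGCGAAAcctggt
POLE, chr12:132687323-132687442, minus strand: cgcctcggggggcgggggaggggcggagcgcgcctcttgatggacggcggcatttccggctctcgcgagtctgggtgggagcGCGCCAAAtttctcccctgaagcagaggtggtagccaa
GINS3, chr16:58392371-58392490, plus strand: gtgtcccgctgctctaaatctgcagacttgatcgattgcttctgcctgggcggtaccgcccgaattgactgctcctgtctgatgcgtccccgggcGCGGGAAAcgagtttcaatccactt
UHRF1, chr19:4909401-4909520, plus strand: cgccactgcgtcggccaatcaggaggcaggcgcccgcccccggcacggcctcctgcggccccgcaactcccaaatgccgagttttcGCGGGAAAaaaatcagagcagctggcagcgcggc

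In E2F1 the 2 matches lie close together, one on each strand, and in MCM2 2 overlapping matches on opposite strands form a single palindrome just after the start. POLE, which fell, and GINS3, which rose, each hold 1 match next to the start. RefSeq windows of 300 bases were available for 43 of the 50 genes, and 22 of these genes (51.2%) held at least 1 match in any of their windows, beside 3.99% of all 27305 genes with a window and 6.94% of the 9184 tested ones. Counted by window, matches were in 23 of 54 (42.6%), beside 3.31% of all 35116 windows and 5.13% of the 13265 windows of tested genes. The 50 genes are of a kind known to be E2F targets, so this share describes the choice. Among the genes with a window, matches were found for 5 of 5 that fell, 1 of 2 that rose and 16 of 36 that did not pass (44.4%). POLD3, which fell, and RPA3, which rose, had no window. A match is a run of letters and not a measured site.

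Among the 5 regulators of the G1/S step, E2F1 and E2F2 fell, none rose and 3 did not pass. E2F2 (ENSG00000007968, GRCh38 chromosome 1, 23506430 to 23531220, minus strand), which encodes an activating E2F factor, measured 5.67, 5.66 and 6.49 FPKM in shCtrl replicates 1, 2 and 3 and 3.62, 4.14 and 3.84 FPKM in shTPD52. All 3 knockdown libraries were below all controls, and the mean fell by 34.9% (log2 change -0.56, SE 0.10; limma, adjusted p = 0.0157). E2F1 (ENSG00000101412, GRCh38 chromosome 20, 33675683 to 33686404, minus strand), an activating E2F factor of S phase genes, measured 33.9, 32.3 and 33.7 FPKM in the controls and 28.3, 27.4 and 26.9 FPKM after knockdown. Its groups were each tight and did not overlap, and it fell by 0.27 in log2 units (SE 0.070; limma, adjusted p = 0.0368). Median-ratio scaling ended the E2F1 call (-0.15; limma, adjusted p = 0.203), as did rescaling FPKM to nuclear genes (-0.20; adjusted p = 0.0921), while E2F2 passed under both. The E2F1 call was also lost with replicate number added to the fit (limma, adjusted p = 0.0529). E2F1 passed in 8 of 19 alternative settings, and E2F2 in 14 of the 18 that held it.

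Cyclin E, the partner of CDK2 at the G1/S step, is encoded by CCNE1 and CCNE2. CCNE1 measured 36.7, 37.1 and 39.2 FPKM in the controls and 31.8, 30.4 and 34.7 FPKM after knockdown, with no overlap between groups but a log2 change of -0.22 that did not pass (95% interval -0.41 to -0.035; limma, adjusted p = 0.0864). It passed as lower after removal of the trend that each library showed on gene length and GC content, called the correction for length and GC below (-0.25; limma, adjusted p = 0.0366). This was the only 1 of 19 alternative settings that called CCNE1. Median-ratio scaling gave -0.099 (limma, adjusted p = 0.513), and with replicate number added to the corrected fit the call was lost (adjusted p = 0.0514). CCNE2, far less abundant per length, measured 1.55, 2.07 and 2.19 FPKM in the controls and 1.37, 1.91 and 0.794 FPKM after knockdown. Its shTPD52 replicate 2 lay among the controls, and the change of -0.43 did not pass (interval -0.97 to 0.11; limma, adjusted p = 0.211). Exons of INTS8 and of another gene on the opposite strand cover 37.1% of the CCNE2 exon bases, so its level is uncertain. CDC25A, a phosphatase that activates CDK2, had a log2 change of -0.13. All 5 genes of this role had fitted changes below 0, and the median was -0.27, or -0.15 with median-ratio scaling.

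Of the 11 origin licensing genes, MCM2 was the 1 that fell, with none higher and 10 not passing, and the median change was -0.16. MCM2 (ENSG00000073111, GRCh38 chromosome 3, 127598223 to 127622436, plus strand), a subunit of the MCM2-7 helicase, measured 28.3, 29.6 and 31.7 FPKM in the controls and 21.6, 25.1 and 18.7 FPKM after knockdown. Every knockdown library was below every control, replicate 2 being the nearest, and MCM2 fell by 0.45 in log2 units (SE 0.11; limma, adjusted p = 0.0337). Exons of TPRA1 and of another gene on the opposite strand cover 23.6% of the MCM2 exon bases, and the sources used here do not state whether counting used strand, so reads of these genes could not be told apart. After correction for length and GC the MCM2 call ended (-0.30; limma, adjusted p = 0.0804).

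No other subunit of the helicase passed. MCM3, the most abundant licensing gene per length, measured 74.2, 72.2 and 77.9 FPKM in the controls and 80.5, 89.01 and 88.4 FPKM after knockdown, so its libraries lay above the controls, and its change of 0.20 did not pass (limma, adjusted p = 0.0975). It passed as higher with median-ratio scaling (0.32; limma, adjusted p = 0.0471) and after correction for length and GC (0.26; adjusted p = 0.0369). These were the only 2 of 19 alternative settings that called MCM3, and quantile normalization gave 0.089 (limma, adjusted p = 0.418). MCM7 measured 58.1, 54.01 and 59.2 FPKM in the controls and 61.1, 55.05 and 60.9 FPKM after knockdown, with overlapping groups and a change of 0.046 (interval -0.14 to 0.23; limma, adjusted p = 0.69). MCM6 had -0.35 (limma, adjusted p = 0.0784) with no overlap between groups, MCM4 -0.16 and MCM5 -0.060. MCM6 passed as lower after correction for length and GC (-0.30; limma, adjusted p = 0.039), while MCM4 and MCM5 changed sign, to 0.033 and 0.20 (adjusted p = 0.699 and 0.105), and MCM7 moved to 0.18 (adjusted p = 0.0793). MCM6 was lower in 4 of 19 alternative settings, but not with median-ratio scaling (-0.23, limma, adjusted p = 0.131).

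The loaders of the helicase did not pass. CDC6, an ATPase that loads MCM2-7 with ORC, measured 14.8, 14.7 and 14.5 FPKM in the controls and 12.8, 14.8 and 12.4 FPKM after knockdown. Replicate 2 of shTPD52 was at the control level and replicates 1 and 3 below it, with a change of -0.13 (interval -0.34 to 0.074; limma, adjusted p = 0.299), or -0.012 once corrected for length and GC. CDT1, its partner, had -0.16, and its libraries of shTPD52 measured 44.7, 33.9 and 41.2 FPKM, the lowest being replicate 2. Of the origin recognition complex, ORC1 had -0.26, ORC6 -0.16 and ORC2 -0.027. ORC6 alone of these 3 had groups that did not overlap (12.4 to 12.8 FPKM in shCtrl, 10.7 to 11.6 FPKM in shTPD52).

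Among the 7 genes of helicase activation and the fork checkpoint, GINS3 rose, none fell and 6 did not pass. GINS3 (ENSG00000181938, GRCh38 chromosome 16, 58295080 to 58406144, plus strand), a subunit of the GINS complex that joins CDC45 and MCM2-7, measured 5.403, 5.74 and 5.16 FPKM in the controls and 7.07, 7.57 and 7.67 FPKM after knockdown. All 3 knockdown libraries lay at a like height above the controls, replicate 2 included, and GINS3 rose by 0.42 in log2 units (SE 0.089; limma, adjusted p = 0.022). Its partners did not pass: GINS1 had -0.11, GINS2 0.10 and GINS4 0.0058, whose sign turned without shCtrl replicate 1 and without shTPD52 replicate 2. Exons of genes on the opposite strand cover 23.6% of GINS4, so its level is uncertain. CDC45, which joins GINS and MCM2-7 in the active helicase, measured 30.9, 28.8 and 29.98 FPKM in the controls and 29.5, 27.9 and 29.95 FPKM after knockdown. Its groups overlapped, with a change of -0.037 (interval -0.21 to 0.13; limma, adjusted p = 0.739). MCM10, which helps to activate the helicase, had -0.46 (limma, adjusted p = 0.107), its libraries running over 4.096 to 7.300 FPKM in shTPD52 and 7.43 to 8.44 FPKM in shCtrl. CLSPN, which encodes claspin, a checkpoint mediator at forks, had -0.14.

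**Figure D2:**
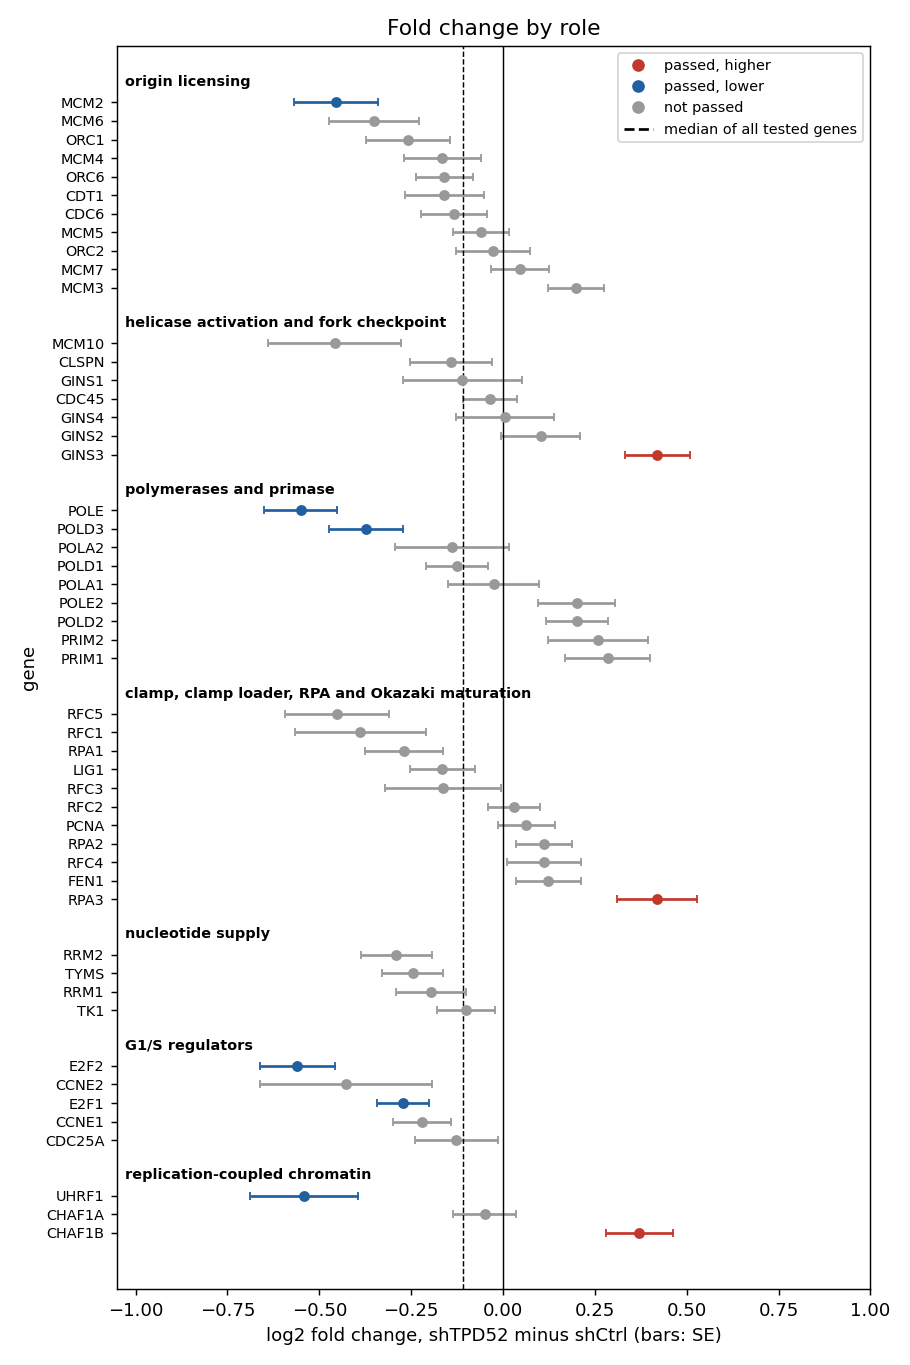
Points are log2 fold changes (shTPD52 minus shCtrl) with SE bars for the 50 genes, ordered within each role; colours give the test's call, and the dashed line is the median of all tested genes at -0.11. The 3 genes that rose and the 6 that fell are spread over 6 of the 7 roles, and no nucleotide supply gene passed.

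Of the 9 genes for polymerases and primase, POLE and POLD3 fell, none rose and 7 did not pass. POLE (ENSG00000177084, GRCh38 chromosome 12, 132623753 to 132687365, minus strand), the catalytic subunit of the leading strand polymerase epsilon, measured 7.06, 7.26 and 7.54 FPKM in the controls and 4.79, 5.33 and 4.37 FPKM after knockdown. Its groups were well apart, and the mean fell by 33.7% (log2 change -0.55, SE 0.099; limma, adjusted p = 0.0155). POLE has the longest exon length of the 50 genes, 16790 bases. After correction for length and GC its change was -0.16 and did not pass (limma, adjusted p = 0.102). POLD3 (ENSG00000077514, GRCh38 chromosome 11, 74493851 to 74669117, plus strand), an accessory subunit of the lagging strand polymerase delta, measured 7.37, 8.08 and 7.87 FPKM in the controls and 5.64, 6.62 and 5.45 FPKM after knockdown. It fell by 0.37 in log2 units (SE 0.10; limma, adjusted p = 0.0415). The POLD3 call was lost with median-ratio scaling (-0.26; limma, adjusted p = 0.0628) and quantile normalization (-0.24; adjusted p = 0.0683).

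Other subunits of the same polymerases did not pass. POLE2, the second subunit of polymerase epsilon, had a fitted value of 0.20 (limma, adjusted p = 0.195). POLD2, the second subunit of polymerase delta, had 0.20 (limma, adjusted p = 0.118), with shTPD52 libraries at 145 to 168 FPKM above the shCtrl libraries at 130 to 142 FPKM. POLD2, the most abundant of the 50 genes per length, passed as higher after correction for length and GC (0.29; limma, adjusted p = 0.0245). It was higher in 3 of 19 alternative settings, but not with quantile normalization or median-ratio scaling (0.088 and 0.32, limma, adjusted p = 0.346 and 0.0879). POLD1, the catalytic subunit of polymerase delta, had -0.12. POLA1, the catalytic subunit of polymerase alpha, had the lowest control mean of the 50 per length and measured 1.44, 1.66 and 1.52 FPKM in the controls and 1.42, 1.67 and 1.43 FPKM after knockdown, with overlapping groups and a change of -0.025 (interval -0.31 to 0.26; limma, adjusted p = 0.898). Its sign turned with median-ratio scaling (0.067) and after correction for length and GC (0.26). PRIM1 and PRIM2, the primase subunits that make the RNA primer, had 0.29 and 0.26 and POLA2 had -0.14 (limma, adjusted p = 0.112, 0.199 and 0.536). Exons of neighbouring genes cover 21.6% of PRIM1 and 35.1% of POLA2, so the levels of both are uncertain.

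Of the 11 genes for the clamp, its loader, the single-strand binding protein RPA and Okazaki fragment maturation, RPA3 rose, none fell and 10 did not pass. RPA3 (ENSG00000106399, GRCh38 chromosome 7, 7636518 to 7718607, minus strand), the smallest subunit of RPA, measured 9.04, 8.06 and 8.73 FPKM in the controls and 12.1, 10.1 and 12.96 FPKM after knockdown. Each knockdown library was above each control, replicate 2 the least, and RPA3 rose by 0.42 in log2 units (SE 0.11; limma, adjusted p = 0.0375). RPA1, the large DNA-binding subunit, had -0.27 (limma, adjusted p = 0.107), and RPA2 had 0.11 (adjusted p = 0.302). The RPA1 libraries measured 35.8 to 37.8 FPKM in shCtrl and 27.8, 35.6 and 28.04 FPKM in shTPD52, so replicate 2 lay just under the controls. Once corrected for length and GC, RPA1 had -0.13.

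PCNA, the sliding clamp, was the second most abundant of the 50 genes per length and measured 89.9, 80.8 and 91.3 FPKM in the controls and 90.6, 88.8 and 94.3 FPKM after knockdown. The groups overlapped, and the change of 0.064 did not pass (interval -0.12 to 0.24; limma, adjusted p = 0.57), its sign turning to -0.051 after correction for length and GC. Of the 5 clamp loader subunits, RFC5 had -0.45 (limma, adjusted p = 0.06), RFC1 -0.39, RFC3 -0.16, RFC2 0.030 and RFC4 0.11. RFC5 was the nearest of the 50 genes to the threshold without passing it, and its groups did not overlap (26.6 to 28.9 FPKM in shCtrl, 17.8 to 25.9 FPKM in shTPD52). It passed as lower with limma-voom on the reads worked back (-0.46; adjusted p = 0.0447) and after correction for length and GC (-0.45; limma, adjusted p = 0.0369). In all, RFC5 was lower in 6 of 19 alternative settings, but not with median-ratio scaling (-0.33, limma, adjusted p = 0.0841). RFC1 overlapped through shTPD52 replicate 2, its knockdown libraries measuring 12.9, 19.1 and 11.3 FPKM. FEN1, the flap nuclease, had 0.12 and LIG1, the ligase that seals Okazaki fragments, had -0.16.

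None of the 4 nucleotide supply genes passed in either direction by limma or limma-voom, with 2 lower and none higher at an unadjusted p under 0.05 by both. All 4 had fitted changes below 0 and a median of -0.22. With median-ratio scaling the median was -0.10, and TK1 turned to 0.021. RRM2, the S phase subunit of ribonucleotide reductase, measured 12.8, 14.1 and 13.96 FPKM in the controls and 10.7, 12.3 and 10.1 FPKM after knockdown. The groups did not overlap, and the change was -0.29 (interval -0.51 to -0.065; limma, adjusted p = 0.0713). It was -0.057 once corrected for length and GC (limma, adjusted p = 0.511), and exons of another gene cover 20.2% of its exon bases. TYMS, thymidylate synthase, measured 14.8, 15.2 and 15.8 FPKM in the controls and 13.3, 13.2 and 11.9 FPKM after knockdown, again without overlap, with a change of -0.25 (interval -0.44 to -0.057; limma, adjusted p = 0.0695). It passed as lower after correction for length and GC (-0.28; limma, adjusted p = 0.0335), and exons of ENOSF1 and TYMSOS on the opposite strand cover 46.6% of its exon bases. TYMS was lower in 2 of 19 alternative settings, but not with median-ratio scaling or quantile normalization (-0.13 and -0.15, limma, adjusted p = 0.242 and 0.167). RRM1, the large reductase subunit, had -0.20, and TK1, thymidine kinase, had -0.10.

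Of the 3 genes that tie chromatin to replication, CHAF1B rose, UHRF1 fell and CHAF1A did not pass. UHRF1 (ENSG00000276043, GRCh38 chromosome 19, 4903080 to 4962154, plus strand), which brings the maintenance DNA methyltransferase to new DNA, measured 9.72, 9.25 and 10.1 FPKM in the controls and 6.45, 8.098 and 5.204 FPKM after knockdown. The libraries of shTPD52 were spread but all below the controls, and UHRF1 fell by 0.54 in log2 units (SE 0.15; limma, adjusted p = 0.0411). This call was lost with quantile normalization (-0.40; limma, adjusted p = 0.0508) and after correction for length and GC (-0.38; adjusted p = 0.064). CHAF1B (ENSG00000159259, GRCh38 chromosome 21, 36385378 to 36419015, plus strand), a subunit of the histone chaperone CAF-1, measured 10.6, 9.87 and 9.78 FPKM in the controls and 14.4, 12.3 and 12.9 FPKM after knockdown. It rose by 0.37 in log2 units (SE 0.091; limma, adjusted p = 0.0322), with no overlap between groups. CHAF1A, the large CAF-1 subunit, measured 25.01, 25.2 and 25.97 FPKM in the controls and 26.97, 22.9 and 23.9 FPKM after knockdown. Its groups overlapped, with a change of -0.050 (interval -0.25 to 0.15; limma, adjusted p = 0.692).

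**Figure D3:**
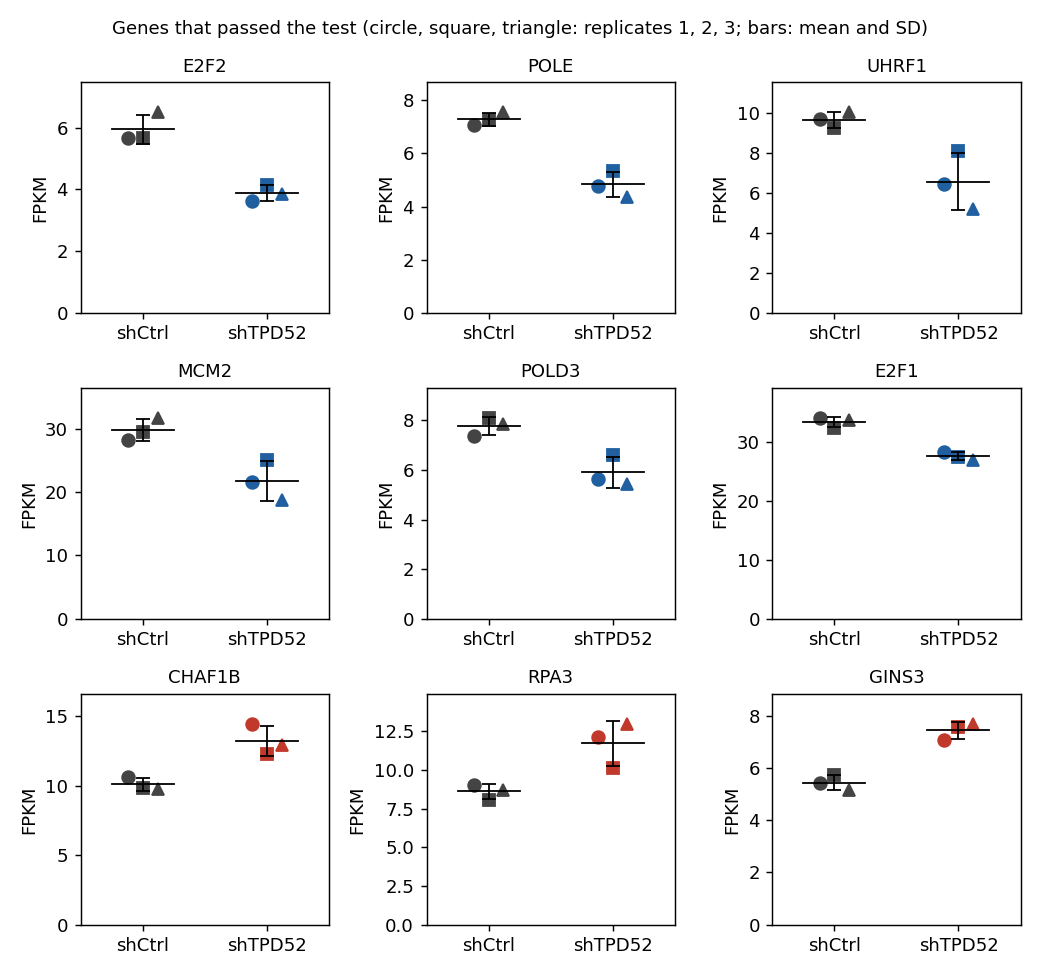
FPKM of each library (symbols), with mean and SD (bars), for the 9 genes that passed; each vertical axis starts at 0. The groups do not overlap in any panel, and in MCM2, POLE, POLD3, E2F2, UHRF1, RPA3 and CHAF1B the square of shTPD52 replicate 2 is the knockdown library nearest to the controls.

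For 8 pairs of subunits of a complex, picked after their values were seen because these differed, ratios of FPKM are given with no test; they say nothing of subunit pairs in general. The ratio of RPA3 to RPA1 was 0.235 ± 0.0128 (SD, n = 3) in shCtrl and 0.394 ± 0.0958 (n = 3) in shTPD52. The ratio of POLE2 to POLE was 0.863 ± 0.0903 in shCtrl and 1.53 ± 0.304 in shTPD52, and that of POLD2 to POLD3 was 17.7 ± 1.58 and 27.0 ± 4.66 (n = 3 each). MCM3 to MCM2 was 2.62, 2.44 and 2.46 in shCtrl and 3.72, 3.55 and 4.72 in shTPD52. GINS3 to GINS1 was 0.937 ± 0.159 in shCtrl and 1.397 ± 0.257 in shTPD52 (n = 3 each). CHAF1B to CHAF1A was 0.398 ± 0.0249 in shCtrl and 0.535, 0.538 and 0.541 in shTPD52 replicates 1, 2 and 3, so these 3 knockdown libraries were close to each other. RFC4 to RFC1 and PRIM1 to POLA1 overlapped between groups through shTPD52 replicate 2. Differences in length between subunits bear on these ratios. On the log2(FPKM + 0.5) scale the change of POLE2 to POLE was 0.75, and 0.34 once corrected for length and GC, and that of PRIM1 to POLA1 was 0.31 and then -0.017. RFC4 to RFC1 had 0.50 and then 0.34, and the other 5 pairs had 0.42 to 0.69 before and 0.42 to 0.59 after.

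**Figure D4:**
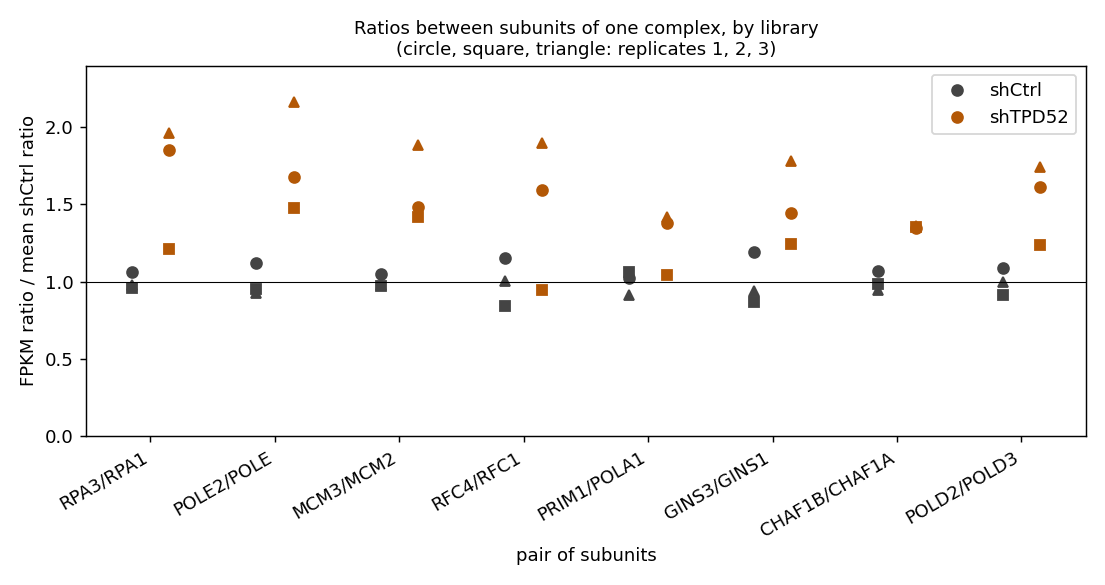
FPKM ratios between 2 subunits of a complex, each divided by the mean shCtrl ratio, by library (grey shCtrl, orange shTPD52). Orange points lie above grey ones for 6 pairs, and for RFC4/RFC1 and PRIM1/POLA1 the square of shTPD52 replicate 2 lies among the controls.

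Exon length moved with the fold change, in the list and in all genes, and its part in the calls was not tested beyond the correction. It counts all exons of a gene and not a single transcript. The GENCODE release 29 value served for 4400 of the 12782 tested genes, and a searched length for the rest. Across the 50 genes, the log2 change and exon length had Pearson's r = -0.30 (on log2 length) and Spearman's rho = -0.31, and across all 12782 genes r = -0.24 and rho = -0.34, as a description, since genes share libraries. The 3 of the 50 genes of up to 2 kb had a median change of 0.064, the 17 of 2 to 4 kb 0.030, the 22 of 4 to 6 kb -0.14 and the 8 longer ones -0.16. Over all genes the medians in these classes were 0.087, -0.0068, -0.12 and -0.24. Correction for length and GC, which also moved the median of all genes to 0.0022, left 5 of the 50 genes higher and 7 lower, beside 10.6% and 10.1% of all genes. Of the 9 calls, 6 were kept: GINS3, RPA3, CHAF1B, E2F1, E2F2 and POLD3. With replicate number added to the corrected fit, 4 of the 9 were kept: GINS3, RPA3, CHAF1B and E2F2. E2F2 moved from -0.56 to -0.36. The sign of 11 genes turned, none of them called before or after: ORC2, MCM4, MCM5, CLSPN, POLA1, POLA2, POLD1, PCNA, RFC2, LIG1 and CHAF1A.

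**Figure D5:**
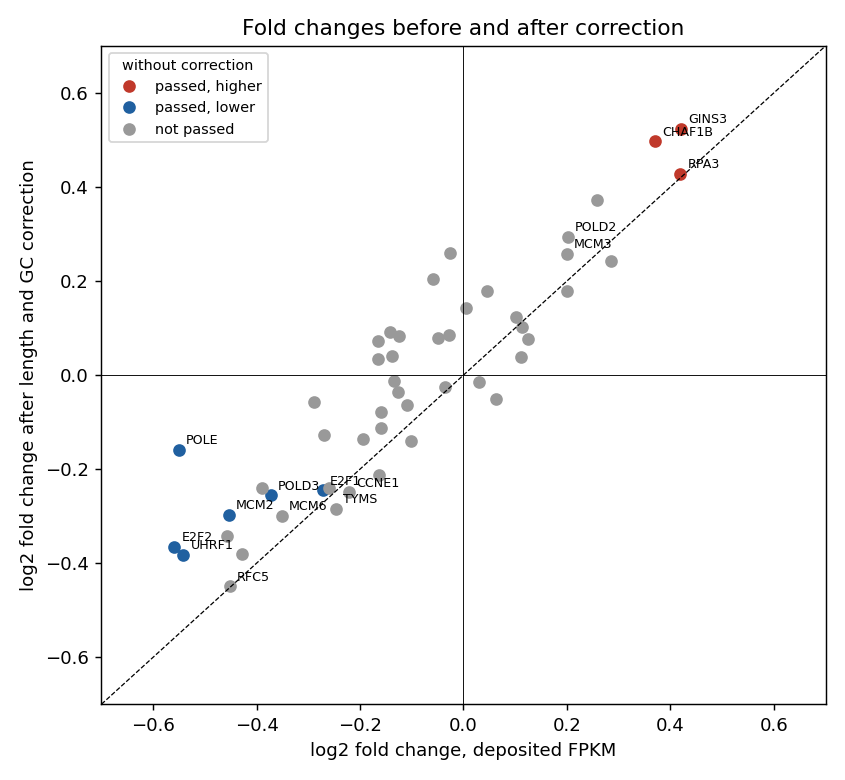
Each point is 1 of the 50 genes, with its log2 fold change on the deposited FPKM (horizontal) and after correction for length and GC (vertical); the dashed line marks equal values. Most points lie above the line, POLE by the most, from -0.55 to -0.16, while GINS3, RPA3 and CHAF1B stay the 3 highest.

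Other replication genes outside the 50 had 3 of 31 tested members higher (ORC5, NASP and POLE3), 2 lower (TICRR and CHTF18) and 26 not passing, with a median of -0.038. The shares were 9.68% higher and 6.45% lower, beside 5.63% and 12.7% of all genes. ORC5, an origin recognition subunit, rose from 4.85 ± 0.257 to 7.26 ± 0.569 FPKM (SD, n = 3 each), or 0.53 in log2 units (limma, adjusted p = 0.0157). NASP, a histone chaperone, rose from 27.9 ± 0.966 to 37.6 ± 2.72 FPKM (n = 3 each), or 0.42 in log2 units (limma, adjusted p = 0.0181). CHTF18, part of an alternative clamp loader, fell from 15.8 ± 1.54 to 10.3 ± 1.33 FPKM (n = 3 each) and fell by 0.60 in log2 units (limma, adjusted p = 0.0199). POLE3 and TICRR are named after their values were seen: POLE3, a small subunit of polymerase epsilon, rose by 0.27 (limma, adjusted p = 0.0454), and TICRR, which helps to activate the helicase, fell by 0.66 (adjusted p = 0.0219). Without shCtrl replicate 1 or 3, or shTPD52 replicate 1, limma called none of these 31 genes. At an unadjusted p under 0.05, 3 or 4 were higher and 4 to 7 lower. Those settings called 0.376% to 0.775% of all genes higher and 0.305% to 0.994% lower. Leaving out shTPD52 replicate 2 gave 4 higher and 10 lower (12.9% and 32.3%, near the 12.6% and 32.9% of all genes in that setting). Once corrected for length and GC, CHTF18 had -0.34 and TICRR -0.41, both still passing as lower (limma, adjusted p = 0.0445 and 0.0282).

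Of 27 tested genes of RB-E2F and cyclin D control, 4 were lower, none was higher and 23 missed the threshold. The list holds E2F factors as well as cyclins, CDKs, RB proteins and CDK inhibitors, so not all of it lies upstream of E2F. None was higher at an unadjusted p under 0.05 by limma or limma-voom. The share lower was 14.8%, beside 12.7% of all genes, and the median change was -0.25, beside -0.11. CDK6, a cyclin D kinase, fell from 3.95 ± 0.214 to 2.396 ± 0.342 FPKM (n = 3 each) and fell by 0.63 in log2 units (limma, adjusted p = 0.0174). CDKN1A, which encodes the CDK inhibitor p21, measured 47.2, 48.3 and 48.2 FPKM in the controls and 39.6, 38.4 and 39.1 FPKM after knockdown. It fell by 0.29 (limma, adjusted p = 0.0268), and CDKN1B, which encodes the inhibitor p27, fell by 0.44 (adjusted p = 0.0386). FBXW7, a ubiquitin ligase subunit that targets cyclin E and is named after its values were seen, fell by 0.57 (limma, adjusted p = 0.0475). Correction for length and GC ended the calls of CDKN1B (-0.20; limma, adjusted p = 0.205) and FBXW7 (-0.31; adjusted p = 0.0671), and CDK6 passed at -0.41 (adjusted p = 0.0196). CDK4 had -0.20 (limma, adjusted p = 0.127) and RB1 -0.27 (adjusted p = 0.206), and CCND1 lay under the filter with 0.383 ± 0.0915 FPKM in the controls and 0.419 ± 0.06402 FPKM after knockdown (n = 3 each). With median-ratio scaling 1 gene of this list was lower (3.7%, beside 8.12% of all genes), and without shTPD52 replicate 2, 13 were (48.1%, beside 32.9%). Without any 1 shCtrl library or shTPD52 replicate 1, limma called none of the 27, with 4 to 7 lower at an unadjusted p under 0.05. Those settings called 0.376% to 1.4% of all genes higher and 0.305% to 2.12% lower. Without shTPD52 replicate 3, limma called 1 of the 27 lower (3.7%, beside 4.5% of all genes).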

How the data were processed

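RNA of 6 NCI-H295R libraries was sequenced in pairs. The authors deposited FPKM, 1 column per library. Per the submitters' processing notes, HISAT2 2.2.1, featureCounts 2.0.3 and GRCh38 (hg38) were used; which step each served, the annotation release and any use of strand were not stated. Symbols were matched for 34864 genes by identifier, and coordinates, GC content and overlaps are from GENCODE release 29. Reads were worked back from the FPKM with the release 29 exon length, or otherwise a searched whole-number length giving whole reads (within 0.02) in all libraries, so wholeness is no check. Odd numbers made up 25.9% to 29.4% of counts from 1 to 20, so mates may have been counted separately and reads may exceed fragments. Limma 3.58.1 (R 4.3.3) with an intensity trend was fitted to log2(FPKM + 0.5) of 12782 genes (mean over the 6 libraries 1 FPKM or more), two-sided, with a Benjamini-Hochberg threshold of 0.05. TPD52, under the filter, is given as a level. Length and GC trends were removed by loess (span 0.3) for 12707 genes. Only the limma fit was tried on simulated reads, which had a fixed spread and no shift between libraries, unlike these data. The members and lists were chosen with earlier results of these data known. Genes planned to be given by library were TPD52, those of the 50 that passed and 14 listed ones. Of the other lists, they were the 3 passing genes with the smallest p, plus CCND1, CDK4, RB1 and CDKN1A. Single libraries of MCM3, CDT1, RPA1 and RFC1 are given outside that plan.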

Additional observations from a re-analysis of the deposited data

How the results depend on the processing

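In 19 alternatives no passing call among the 50 genes changed direction. Among the 50, the count higher was 0 with no filter (6 at an unadjusted p under 0.05) and 5 after the length and GC correction, and the count lower was 2 with no filter, 3 without the variance trend and 3 with the replicate block and that correction together; leaving out 1 library gave 0 to 6 higher and 0 to 18 lower. Over all genes, 177 were higher and 354 lower with no filter, 1083 and 1038 with median-ratio scaling, 1152 higher with quantile normalization, and 1347 and 1197 higher after the correction without and with the block; leaving out 1 library gave 48 to 1616 higher and 39 to 4209 lower. The median change of the 50 was -0.012 with median-ratio scaling, -0.049 with quantile normalization and -0.021 after the correction, with or without the block. Median-ratio scaling moved the median of all genes from -0.11 to 0.00054, and the sign of 7 of the 50 genes; the correction moved that of 11. For other replication genes, higher and lower were 1 and 0 with no filter and 5 and 1 with median-ratio scaling; lower were 4 with the block, 4 after the correction and 4 with both; leaving out 1 library gave 0 to 4 higher and 0 to 10 lower. For the cyclin D and RB list, lower were 0 with no filter, 2 with a filter of 5 FPKM, 1 with median-ratio scaling, 2 with quantile normalization, 2 without the trend, 7 with the block and 1 when rescaled to nuclear genes, and 1 was higher after the correction with or without the block; leaving out 1 library gave 0 to 13 lower. For mitotic genes, higher and lower were 0 and 1 with no filter, and 3 were lower with median-ratio scaling; leaving out 1 library gave 0 to 1 higher and 0 to 9 lower. The cause of these shifts was not tested. The labels do not say whether same-numbered libraries were paired. Their deviations from the group means correlated at 0.045, 0.25 and 0.022. The same-numbered control correlated best with shTPD52 replicates 1 and 2, and shCtrl replicate 1 correlated best with shTPD52 replicate 3 (0.28). Deviations within a group sum to 0, so these values cannot settle whether pairing exists. With the replicate block 3 of the 50 genes were higher and 7 lower, and 906 and 2158 of all genes. The fewest reads of a gene of the 50 in a library were 134 (CCNE2).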

Other observations

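Genes of G2 and mitosis, which follow S phase, had 5 of 25 tested members lower, 1 higher and 19 not passing, with a median log2 change of -0.12 beside -0.11 over all tested genes. The shares were 20% lower and 4% higher, beside 12.7% and 5.63% of all genes. CCNB2, a mitotic cyclin, measured 55.6, 54.04 and 58.4 FPKM in the controls and 40.9, 42.3 and 37.01 FPKM after knockdown, and fell by 0.48 in log2 units (SE 0.080; limma, adjusted p = 0.0131). FOXM1, a transcription factor of G2/M genes, measured 55.6, 58.2 and 57.96 FPKM in the controls and 43.6, 44.9 and 34.97 FPKM after knockdown, and fell by 0.48 (SE 0.10; limma, adjusted p = 0.024). PTTG1, which encodes securin, rose from 126 ± 9.61 to 176 ± 19.2 FPKM (SD, n = 3 each), or 0.48 in log2 units (limma, adjusted p = 0.0238). BUB1B, KIF20A and MKI67, named after their values were seen, fell by 0.78, 0.37 and 0.66 (limma, adjusted p = 0.0295, 0.0271 and 0.0478). MKI67, the gene of the Ki-67 antigen, had -0.36 after the length and GC correction and did not pass (limma, adjusted p = 0.0611). When shCtrl replicate 1 or 3, or shTPD52 replicate 1, was left out, limma called none of the 25. At an unadjusted p under 0.05, 1 was higher and 5 to 7 lower. Those settings called 0.376% to 0.775% of all genes higher and 0.305% to 0.994% lower. Without shTPD52 replicate 2, limma called 1 of the 25 higher and 9 lower (36%, beside 32.9% of all genes lower in that setting).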
